A study of Mus musculus with 12 samples.

Results

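Messenger RNA of 10 genes of bile acid synthesis and its feedback control was followed in mouse liver on a ketogenic diet and on a control diet. The 10 were taken by gene symbol from the deposited count table, which lists 27105 genes: Cyp7a1, Cyp8b1, Cyp27a1, Cyp7b1, Cyp2c70, Hsd3b7, Akr1d1, Baat, Nr1h4 and Nr0b2. All 10 were found once and all 10 passed the filter on low counts. A ketogenic diet is very low in carbohydrate and high in fat. Each diet had 6 libraries made from total liver RNA, which the series describes as biological replicates. The labels name the diets and no more: what they contained, how long they were fed, and the mice's strain, sex, age and hour of killing were not stated. Libraries are called ketogenic 1 to 6 and control 1 to 6 after the numbers in their titles.

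Hepatocytes turn cholesterol into bile acids by a classic route, opened by Cyp7a1, and an alternative route, opened by Cyp27a1 and continued by Cyp7b1. Cyp8b1 sets how much of the product is cholic acid, and in mice Cyp2c70 makes the muricholic acids. Returning bile acids activate the nuclear receptor FXR, the product of Nr1h4, which induces Nr0b2 (SHP), a repressor of Cyp7a1 and Cyp8b1.

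The libraries held 30.2 to 33.5 M counts. Ketogenic 4 stood apart from the rest. Its deviations from the mean of the other 11 libraries, both diets together, were lower for longer transcripts (Spearman rho across genes -0.513). The other 11 libraries, measured in the same way, gave -0.315 to 0.338. The median correlation of ketogenic 4 with its own diet was 0.959, against 0.978 to 0.988 for the others. Calls that it changes are given without it as well. Hepatocyte markers were abundant in both diets, with a summed level of 80060 to 102000 CPM (counts scaled to library size) in ketogenic livers and 89370 to 126400 CPM in control livers over the 9 of 10 markers found in the table. Levels are CPM throughout unless another unit is named, and the diets were compared with edgeR's quasi-likelihood test, adjusted by the Benjamini-Hochberg method over the 13995 genes tested, with a call at an adjusted p under 0.05.

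Of the 10 genes, 1 was called, Cyp2c70, which fell in ketogenic livers, and 0 were called higher. Over all genes tested the same rule called 3.78%, with 2.34% higher and 1.44% lower, so the members' share rests on a single gene. At an unadjusted p under 0.05 the same test gave 1 member higher, Cyp8b1, and 1 lower, Cyp2c70. The share of all genes at that threshold was not counted, here or for the lists below. Akr1d1, the next member by p (0.055, edgeR), ranked 2434 among the 13995 genes tested. Fewer than 2434 of these genes thus lay under an unadjusted p of 0.05 in edgeR, which is an upper bound and not a count. A p near 0.05 was common, and neither the pair nor such counts in the lists below are read as an excess. Cyp8b1 and Cyp2c70 were also the 2 members called by DESeq2, which called 7.35% of the genes it adjusted. The median log2 fold change of the 10 genes was 0.12, beside -0.001 over all genes tested. Without ketogenic 4, 0 of the 10 genes were called by edgeR, while 5.39% of all genes were, 3.15% higher and 2.24% lower. The same pair stayed under an unadjusted p of 0.05 in that fit, where the share of all genes was not counted either. In bulk liver RNA, fewer hepatocytes and less RNA per hepatocyte cannot be told apart.

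Promoter sequence is shown for the 3 genes whose levels the comparisons turn on most and for which the RefSeq table of promoters had an entry with a motif of a liver bile acid regulator. Of the 10 genes, 7 were matched by symbol in that table (build GRCm38.p6), and Cyp7a1, Cyp7b1 and Baat were not. The 250 bases before the start are printed 5′ to 3′ in the direction of the gene, for Cyp8b1 from chr9:121916306-121916555 on the minus strand, for Cyp2c70 from chr19:40187287-40187536 on the minus strand and for Nr0b2 from chr4:133553126-133553375 on the plus strand. Capitals mark exact matches to an HNF4 site (CAAAGNCCA) or an LRH-1 site (CAAGGNC). HNF4 and LRH-1 are liver receptors long studied at bile acid genes.
Cyp8b1: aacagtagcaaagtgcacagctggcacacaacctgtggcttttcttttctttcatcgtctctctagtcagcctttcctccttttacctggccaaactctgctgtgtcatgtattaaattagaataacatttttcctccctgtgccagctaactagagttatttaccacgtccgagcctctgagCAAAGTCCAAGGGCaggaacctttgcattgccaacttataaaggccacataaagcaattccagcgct
Cyp2c70: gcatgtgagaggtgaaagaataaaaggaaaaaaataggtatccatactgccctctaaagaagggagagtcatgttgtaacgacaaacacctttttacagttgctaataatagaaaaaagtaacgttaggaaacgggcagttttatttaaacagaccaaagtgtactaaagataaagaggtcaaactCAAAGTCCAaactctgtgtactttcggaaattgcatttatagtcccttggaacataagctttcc
Nr0b2: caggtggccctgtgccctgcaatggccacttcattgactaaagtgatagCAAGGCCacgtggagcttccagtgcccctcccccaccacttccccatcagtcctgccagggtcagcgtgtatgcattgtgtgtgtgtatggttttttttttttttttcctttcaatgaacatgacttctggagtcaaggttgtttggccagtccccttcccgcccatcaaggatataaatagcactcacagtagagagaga
In Cyp8b1 the HNF4 site lay at -67 to -59 from the start and overlapped an LRH-1 site at -60 to -54, so the capitals hold both. Cyp2c70 had an HNF4 site at -64 to -56, and Nr0b2 an LRH-1 site at -201 to -195. Both strands of the 250 bases before and the 50 after the start were searched in all 32851 windows of the table, of which 17.8% held the LRH-1 site and 1.98% the HNF4 site. The D box bound by the clock-controlled factors DBP, TEF and HLF (TTATGNAA) was present in 3.38% of windows, among them those of Akr1d1 at -8 to -1 and Cyp27a1 at -60 to -53. The bases after the start in the Cyp27a1 window were not found in a GENCODE transcript of that gene, so its position is less certain. The inverted repeat that FXR binds was searched only as AGGTCA, 1 base and the exact reverse complement. It was found in 0 of the 7 windows and in 3 of all windows. A match so rare cannot tell whether these genes have FXR sites. No motif was matched in the windows of Hsd3b7 and Nr1h4. A match describes letters in this window and nothing about binding.

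Cyp2c70 is the mouse enzyme of muricholic acid formation, and the deposited table places it on the minus strand of chromosome 19. Its level was 130.2, 265.6, 122.7, 191.7, 296.1 and 64.99 CPM in ketogenic 1 to 6, with a median of 161.0 CPM. In control 1 to 6 it was 441.6, 752.5, 454.0, 405.5, 283.6 and 406.5 CPM, with a median of 424.0 CPM. The 2 diets nearly separated: 5 of 6 ketogenic livers lay below every control liver, and ketogenic 5 lay just above control 5. The mean was 179 ± 89.4 CPM in ketogenic livers and 457 ± 157 CPM in control livers (SD, n = 6 each), and the gene fell by 1.36 ± 0.33 on the log2 scale (SE; 95% interval -2.06 to -0.65; adjusted p = 0.0357, edgeR). That is a fold of 0.39, with an interval of 0.24 to 0.636.

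The direction of Cyp2c70 held whichever library was left out, at log2 fold changes of -1.56 to -1.16, but the call did not. It was lost in 7 of 12 such fits: without ketogenic 1 (adjusted p = 0.0667), ketogenic 3 (0.0798) or ketogenic 4 (0.0635), and without control 1 (0.0659), control 2 (0.0750), control 3 (0.0707) or control 6 (0.0513). It was also lost with no filter on low counts (0.119). DESeq2 gave an adjusted p of 0.000794.

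**Figure D1:**
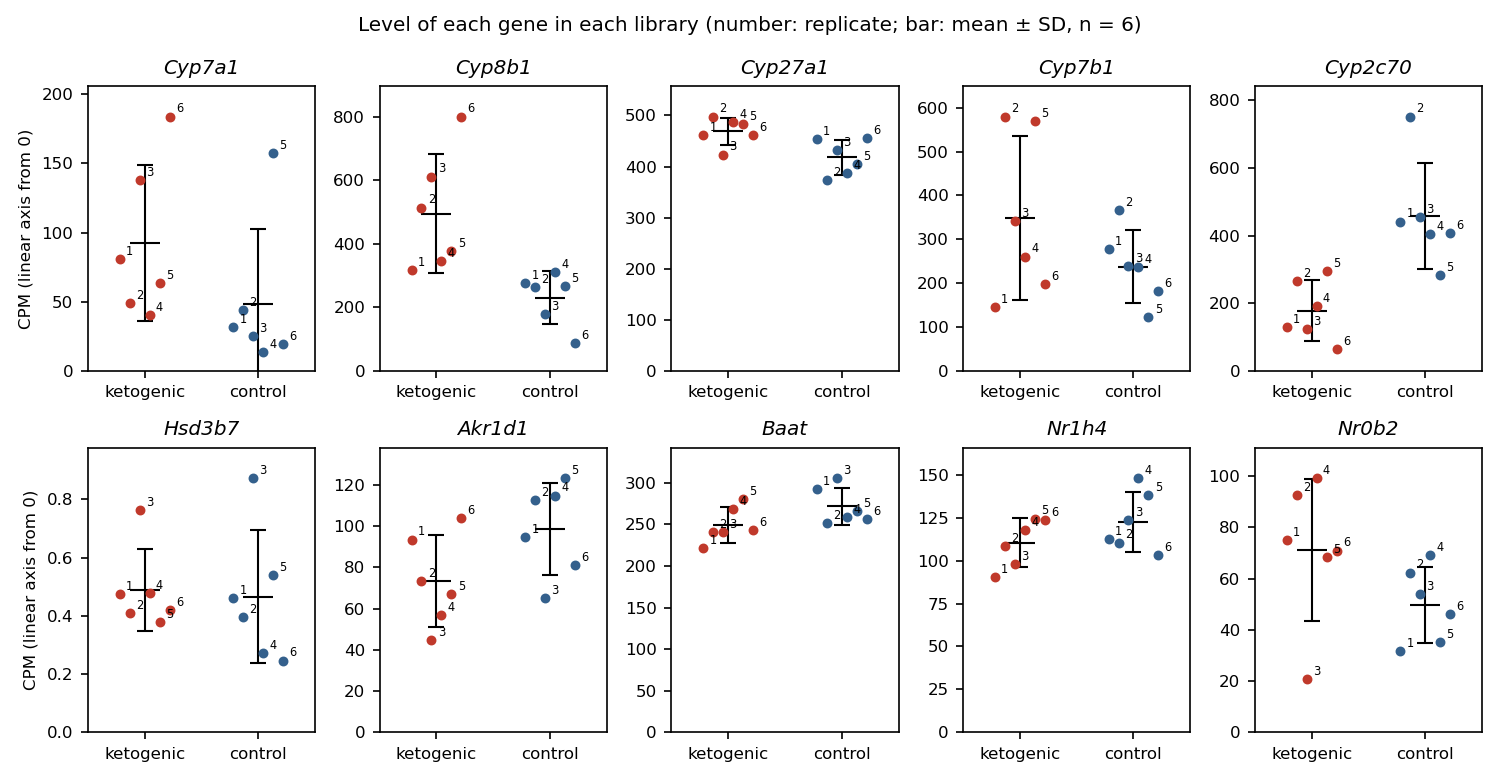
Level of each of the 10 genes in every library, in CPM on linear axes that start at 0, with ketogenic livers in red and control livers in blue, replicate numbers beside the points, and bars for the mean ± SD (n = 6 per diet; the lower bar of Cyp7a1 in control livers runs below 0 and is cut there). Cyp2c70 shows 5 of 6 ketogenic livers below all control livers, Cyp8b1 shows all 6 above, and control 5 stands high in Cyp7a1 at 157.2 CPM.

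Cyp7a1 encodes the rate-limiting enzyme of the classic pathway (minus strand of chromosome 4). Its level in ketogenic 1 to 6 was 80.81, 49.08, 137.6, 40.58, 63.17 and 183.8 CPM, with a median of 71.99 CPM. In control 1 to 6 it was 31.62, 44.18, 24.9, 13.79, 157.2 and 19.62 CPM, with a median of 28.26 CPM. The ranges overlapped: control 5 exceeded all ketogenic livers but ketogenic 6, and of the other 5 control livers control 2 alone lay above the lowest ketogenic one.

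The spread of Cyp7a1 was among the largest in the tissue. Highest and lowest libraries differed 4.53-fold among ketogenic livers and 11.4-fold among control livers, and its coefficient of variation stood at the 95.9th and the 99.6th percentile of all genes tested in the ketogenic and in the control diet. Its log2 fold change was 0.93 ± 0.59 (SE; 95% interval -0.36 to 2.22; adjusted p = 0.498, edgeR), an interval that holds both a small decrease and a 4.64-fold increase. Without control 5 it was 1.79 and passed the threshold (adjusted p = 0.0407), and without both control 5 and ketogenic 4 it was 1.94 (0.0362). Leaving out any of the other 11 libraries gave 0.61 to 1.08, and none of these fits called the gene.

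Cyp8b1 encodes the sterol hydroxylase that directs synthesis to cholic acid (minus strand of chromosome 9), and its proximal promoter is the first of the sequences above. Its level in ketogenic 1 to 6 was 317.0, 513.6, 611.4, 345.3, 376.8 and 800.1 CPM, with a median of 445.2 CPM. In control 1 to 6 it was 275.8, 264.2, 179.3, 310.0, 265.7 and 86.4 CPM, with a median of 265.0 CPM. All 6 ketogenic livers lay above all 6 control livers, although ketogenic 1 exceeded control 4 only narrowly.

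Between diets Cyp8b1 differed by a log2 fold change of 1.10 ± 0.30 (SE; 95% interval 0.47 to 1.73). Its adjusted p of 0.0543 (edgeR) missed the threshold by little. The gene was past the threshold with DESeq2 (adjusted p = 0.00536), with library size as the only scaling (0.0437), with 1 surrogate variable (0.0459) and without ketogenic 1 (0.0452). It was not past it with limma-voom (0.0611), offsets for transcript length (0.0767), no filter on low counts (0.14), the replicate block (0.23), the block with those offsets (0.267), or in the other 11 leave-one-out fits (0.0528 to 0.128). Estimates over the 12 leave-one-out fits ran from 0.91 to 1.21.

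**Figure D2:**
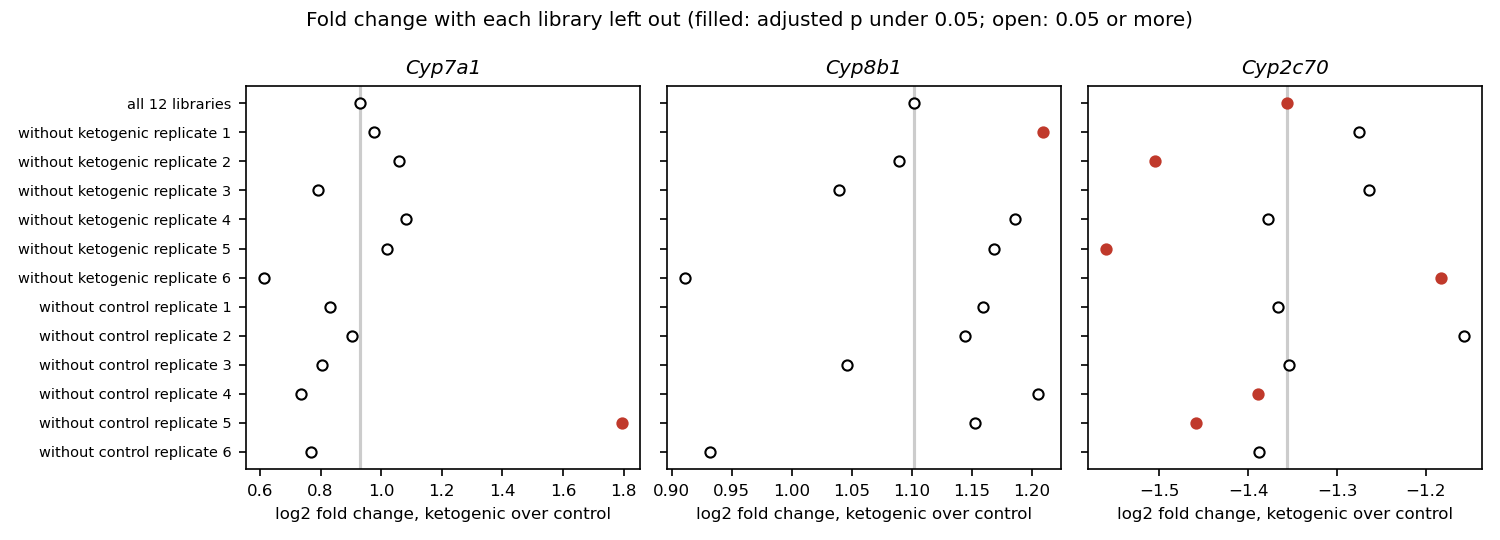
Log2 fold change, ketogenic over control, of Cyp7a1, Cyp8b1 and Cyp2c70 with all 12 libraries and with each left out, each panel on its own horizontal scale that does not start at 0, filled where the adjusted p was under 0.05. Cyp7a1 moves to 1.79 without control 5 alone, Cyp8b1 stays between 0.91 and 1.21, and Cyp2c70 keeps its sign while 7 of 12 points are open.

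The alternative pathway had a steady first enzyme and a variable second one. Cyp27a1, the mitochondrial sterol hydroxylase that starts this route and also shortens the side chain in the classic one, lies on the plus strand of chromosome 1. Its lowest, median and highest levels were 423.4, 472.3 and 497.8 CPM in ketogenic livers and 373.1, 418.3 and 454.9 CPM in control livers. The coefficient of variation was 5.70% and 8.25%, and 5 of 6 ketogenic livers lay above the highest control liver, with ketogenic 3 inside the control range. Its log2 fold change was 0.17 ± 0.09 (SE), the interval was -0.03 to 0.36, and the adjusted p was 0.397 by edgeR, so any difference within that interval was small.

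Cyp7b1, the oxysterol hydroxylase that follows Cyp27a1, lies on the minus strand of chromosome 3. It had 146.2, 579.7, 341.1, 260.6, 569.9 and 197.0 CPM in ketogenic 1 to 6 and 278.5, 366.0, 239.7, 236.2, 123.6 and 182.3 CPM in control 1 to 6. Ketogenic 2 and ketogenic 5 exceeded every control liver, and the other 4 lay within the control range. The difference on the log2 scale was 0.55 ± 0.34 (SE; 95% interval -0.18 to 1.29; adjusted p = 0.473, edgeR).

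Ratios of counts within a library need no scaling between libraries, and no test was run on them. They were not corrected for exon length, so they compare libraries and diets and do not rank the 2 genes. The log2 ratio of Cyp7a1 over Cyp7b1 averaged -1.95 ± 1.39 in ketogenic livers and -2.74 ± 1.56 in control livers (SD, n = 6 each). Control 5 was the only library in which Cyp7a1 had more counts than Cyp7b1, at a log2 ratio of 0.35, and the other 5 control livers lay at -4.10 to -3.05. Cyp7a1 has 4174 bases of exon and Cyp7b1 2166. Per kilobase of exon, Cyp7a1 was at 37.66 CPM in control 5 and Cyp7b1 at 57.08 CPM, so Cyp7b1 was the higher one there too. The difference between diets, 0.79, was 1.41 without control 5 and 0.42 without ketogenic 6. Cyp7a1 over Cyp27a1 averaged -2.55 ± 0.92 in ketogenic livers and -3.63 ± 1.26 in control livers.

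Both of these ratios overlapped between diets, and so did the ones built on Cyp8b1. The log2 ratio of Cyp8b1 over Cyp7b1 averaged 0.60 ± 0.94 in ketogenic livers and -0.08 ± 0.76 in control livers. Within the classic route, Cyp8b1 over Cyp7a1 averaged 2.55 ± 0.58 in ketogenic livers and 2.66 ± 1.23 in control livers, a difference of -0.11, far within the spread. That difference was -0.49 without control 5 and 0.26 without control 4. Cyp8b1 over Cyp7b1 differed by 0.68, and by 0.40 without ketogenic 6. A further ratio, Cyp8b1 over Cyp2c70, was chosen after its values were seen: it was 0.35 to 3.62 in ketogenic livers and -2.23 to -0.09 in control livers, without overlap, as the levels of both genes already showed.

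**Figure D3:**
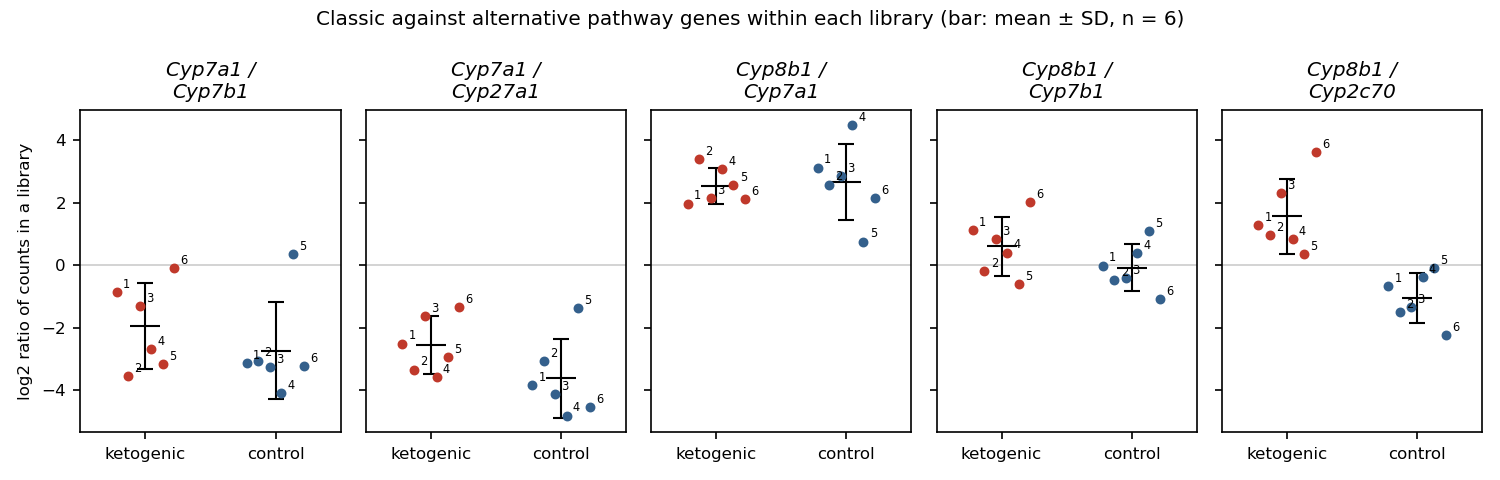
Log2 ratio of counts of 2 genes within each library, with ketogenic livers in red, control livers in blue, replicate numbers beside the points and bars for the mean ± SD (n = 6 per diet). The first 4 ratios overlap between diets, control 5 stands apart at 0.35 in Cyp7a1 over Cyp7b1, and Cyp8b1 over Cyp2c70 separates the diets.

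The steps that both routes share and the conjugation step were not called. Akr1d1, the reductase that sets the ring shape of bile acids (plus strand of chromosome 6), had lowest, median and highest levels of 44.61, 70.19 and 103.8 CPM in ketogenic livers and 64.99, 103.6 and 123.2 CPM in control livers. Only ketogenic 3 and ketogenic 4 lay below the lowest control liver. Its log2 fold change was -0.43 ± 0.21 (SE; 95% interval -0.87 to 0.01; adjusted p = 0.316, edgeR).

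Baat joins bile acids to taurine or glycine (minus strand of chromosome 4). It had 221.7, 242.3 and 280.7 CPM as lowest, median and highest level in ketogenic livers and 251.4, 262.5 and 305.8 CPM in control livers. Its ranges overlapped although 4 of 6 ketogenic livers lay below the lowest control liver, and its log2 fold change was -0.13 ± 0.09 (SE; adjusted p = 0.577, edgeR).

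Hsd3b7, a dehydrogenase that both routes share (plus strand of chromosome 7), was barely counted. Its level was 0.380 to 0.765 CPM in ketogenic livers and 0.247 to 0.874 CPM in control livers, from 7 to 27 counts a library. In the deposited table its whole span lies inside another protein-coding gene on the same strand, Gm49388, which had 3 counts over the 12 libraries, and 67.5% of it is overlapped on the opposite strand by 9430064I24Rik, with 26 counts. No source used here says how reads that fall in more than 1 gene were counted, and the part of that choice in this low level was not tested. The log2 fold change of 0.07 ± 0.32 (SE; 95% interval -0.62 to 0.76; adjusted p = 0.953, edgeR) therefore describes very few counts, and it turned negative in 3 of 12 leave-one-out fits, to -0.10 at the lowest.

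The receptors did not pass the test. Nr1h4, the bile acid receptor FXR (minus strand of chromosome 10), had lowest, median and highest levels of 90.36, 113.1 and 124.4 CPM in ketogenic livers and 103.3, 117.9 and 148.0 CPM in control livers. The ranges overlapped widely, and the log2 fold change was -0.15 ± 0.12 (SE; 95% interval -0.40 to 0.10; adjusted p = 0.601, edgeR).

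Nr0b2, the repressor SHP that FXR induces (plus strand of chromosome 4), had 75.06, 92.61, 20.71, 99.26, 68.29 and 70.92 CPM in ketogenic 1 to 6. It had 31.65, 62.35, 53.87, 69.14, 35.31 and 46.25 CPM in control 1 to 6. Ketogenic livers held the extremes at both ends, since 4 of 6 lay above the highest control liver and ketogenic 3 lay below the lowest. The difference on the log2 scale was 0.52 ± 0.30 (SE; 95% interval -0.13 to 1.17; adjusted p = 0.445, edgeR). Without ketogenic 3 it was 0.71 (adjusted p = 0.0852), the highest of the 12 leave-one-out estimates.

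**Figure D4:**
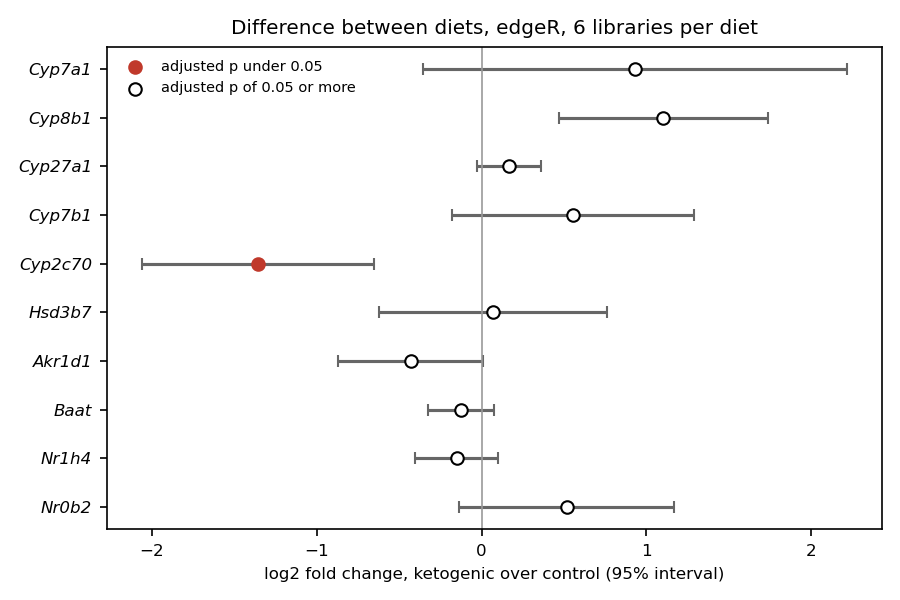
Log2 fold change, ketogenic over control, of the 10 genes with 95% intervals from edgeR on 6 libraries per diet, filled where the adjusted p was under 0.05. Cyp2c70 is the 1 filled point at -1.36, the interval of Cyp8b1 (0.47 to 1.73) lies above 0, and the widest interval is that of Cyp7a1.

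Levels of different genes were compared per kilobase of exon. In ketogenic livers the mean levels were 253.4 CPM per kilobase for Cyp8b1, 215.8 for Cyp27a1, 161.2 for Cyp7b1, 128.4 for Baat, 90.14 for Cyp2c70, 62.85 for Nr0b2, 47.94 for Nr1h4, 25.28 for Akr1d1, 22.16 for Cyp7a1 and 0.176 for Hsd3b7. Neighbours in that order overlapped in range except Nr1h4 over Akr1d1 and Cyp7a1 over Hsd3b7. In control livers the levels were 230.8 CPM per kilobase for Cyp2c70, 192.2 for Cyp27a1, 140.1 for Baat, 118.1 for Cyp8b1, 109.7 for Cyp7b1, 53.24 for Nr1h4, 43.96 for Nr0b2, 34.06 for Akr1d1, 11.63 for Cyp7a1 and 0.168 for Hsd3b7. There the exceptions were Cyp27a1 over Baat and Cyp7a1 over Hsd3b7. By these means Cyp7a1 came last but for Hsd3b7 in both diets.

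Relations between genes across livers were measured on log2 CPM after removal of the diet mean, over 12 pairs of genes with known links. By permutation of libraries within each diet, 0 of the 12 pairs passed after adjustment, and the lowest adjusted p was 0.386. The repressor Nr0b2 and its target Cyp7a1 had Pearson r = -0.513 (n = 12, permutation p = 0.0657, adjusted p = 0.463) and Spearman rho = -0.566 (permutation p = 0.0643, adjusted p = 0.386). Within the diets r was -0.602 in ketogenic livers and -0.540 in control livers, and without the libraries farthest from the median of Cyp7a1, ketogenic 6 and control 5, it was -0.692. Cyp7a1 and Nr1h3, the oxysterol receptor that induces Cyp7a1 in mice, had r = -0.493 (permutation p = 0.0791, adjusted p = 0.463) and rho = -0.566 (permutation p = 0.0535, adjusted p = 0.386), and r = -0.355 without the same libraries. With library size as the only scaling r was -0.014 for this pair and -0.463 for Cyp7a1 with Nr0b2. Nr0b2 and its other target here, Cyp8b1, had r = -0.199 (permutation p = 0.526, adjusted p = 0.789) and rho = -0.231 (permutation p = 0.492, adjusted p = 0.738). Within the diets r of Cyp8b1 with Nr0b2 was -0.405 in ketogenic livers and 0.042 in control livers. Without ketogenic 1 and control 6 it was -0.303.

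The classic pathway enzymes Cyp7a1 and Cyp8b1 had r = 0.445 (n = 12, permutation p = 0.193, adjusted p = 0.463) and rho = 0.392 (permutation p = 0.223, adjusted p = 0.669), and r = 0.284 without ketogenic 6 and control 5. Within the diets r was 0.746 in ketogenic livers and 0.288 in control livers. Nr1h4 and Nr0b2 had r = 0.310 (permutation p = 0.363, adjusted p = 0.622) and rho = 0.182 (permutation p = 0.575, adjusted p = 0.767), and r = 0.340 without ketogenic 1 and control 4.

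Among all 45 pairs of the 10 genes, the one with the largest r was singled out after the values were seen. It joined Cyp7b1 and Cyp2c70, at r = 0.80 (n = 12, permutation p = 0.00684, adjusted p = 0.308 over the 45) and rho = 0.755 (permutation p = 0.0177, adjusted p = 0.748). Neither passed after adjustment. Within ketogenic livers r was 0.757, within control livers it was 0.923, and without control 5 and ketogenic 1 it was 0.859. Leaving out any 1 library gave 0.745 to 0.865.

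As a description, the genes most like each member in these deviations were sought among 11585 genes with at least 1 CPM, over 12 libraries that share depth and preparation. The highest of so many r over 12 libraries is large even between unrelated genes, and no test was run on these values. The 2 most like Cyp7a1 were Castor2 (r = 0.851) and Slc39a11 (0.822). Cyp8b1 ran with Inca1 (0.905), Cyp2c70 with Serpine2 (0.945) and Abhd17c (0.898), and Cyp7b1 with Serpina3k (0.958) and Lmf1 (0.937). For Cyp27a1 they were Cep89 (0.869) and Rab20 (0.857), and for Akr1d1 Hoga1 (0.872) and Ttpa (0.866). For Baat they were Ldha (0.902) and Ciao3 (0.890), and for Hsd3b7, on very few counts, Klhl15 (0.877) and Nat10 (0.849). Nr1h4 was most like Coq9 (0.884) and Them4 (0.867), and Nr0b2 most like Ndfip1 (0.878) and Nit2 (0.779).

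Other genes of the pathway were counted in lists. Of 17 further synthesis enzymes 16 were tested, 2 rose and 0 fell, with a median log2 fold change of 0.24. Hsd17b4, a peroxisomal enzyme of side-chain shortening, rose to 754 ± 53.2 CPM in ketogenic livers, against 505 ± 92.7 CPM in control livers (SD, n = 6 each; log2 fold change 0.58, adjusted p = 0.0215, edgeR). Fdxr, which passes electrons to mitochondrial enzymes such as Cyp27a1, rose to 20.1 ± 3.12 CPM in ketogenic livers, against 13.3 ± 1.00 CPM in control livers (0.60, adjusted p = 0.00689, edgeR). The most abundant, Scp2, a sterol carrier and peroxisomal thiolase, had 4827 ± 804 CPM in ketogenic livers and 4543 ± 845 CPM in control livers, and Slc27a2, an acyl-CoA synthetase, had 2137 ± 349 CPM in ketogenic livers and 1535 ± 358 CPM in control livers; neither was called. DESeq2 also called Por higher. Fdxr stayed called in all 12 leave-one-out fits, and Hsd17b4 in 11, at an adjusted p of 0.0529 without ketogenic 2.

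Of 20 other regulators 18 were tested and 0 were called in either direction by edgeR, with a median log2 fold change of -0.07. At an unadjusted p under 0.05, 0 were higher and 1 was lower, Fgfr4. Hnf4a had 662 ± 154 CPM in ketogenic livers and 766 ± 106 CPM in control livers, and Rxra, the partner of FXR, had 638 ± 129 CPM in ketogenic livers and 612 ± 67.7 CPM in control livers. Fgfr4, the receptor of the gut hormone that represses Cyp7a1 (named after its values were seen), had 35.7 ± 7.76 CPM in ketogenic livers and 51.5 ± 6.88 CPM in control livers (log2 fold change -0.53, adjusted p = 0.0726, edgeR). It was called lower by DESeq2 and, in edgeR, without ketogenic 4.

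Of 14 bile acid and lipid transporters 13 were tested, 1 rose and 0 fell, with a median of 0.11. Abcc3, which exports conjugates from hepatocytes to blood, rose to 331 ± 71.6 CPM in ketogenic livers, against 149 ± 60.9 CPM in control livers (SD, n = 6 each; log2 fold change 1.16, adjusted p = 0.0194, edgeR). The canalicular bile salt pump Abcb11 had 587 ± 133 CPM in ketogenic livers and 770 ± 96.0 CPM in control livers, and the uptake carrier Slco1b2 had 1077 ± 100 CPM in ketogenic livers and 1009 ± 160 CPM in control livers; neither was called. Abcc3 stayed called in all 12 leave-one-out fits (highest adjusted p 0.0497), and without ketogenic 4 Abcb4, named after its values were seen, was called higher as well.

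**Figure D5:**
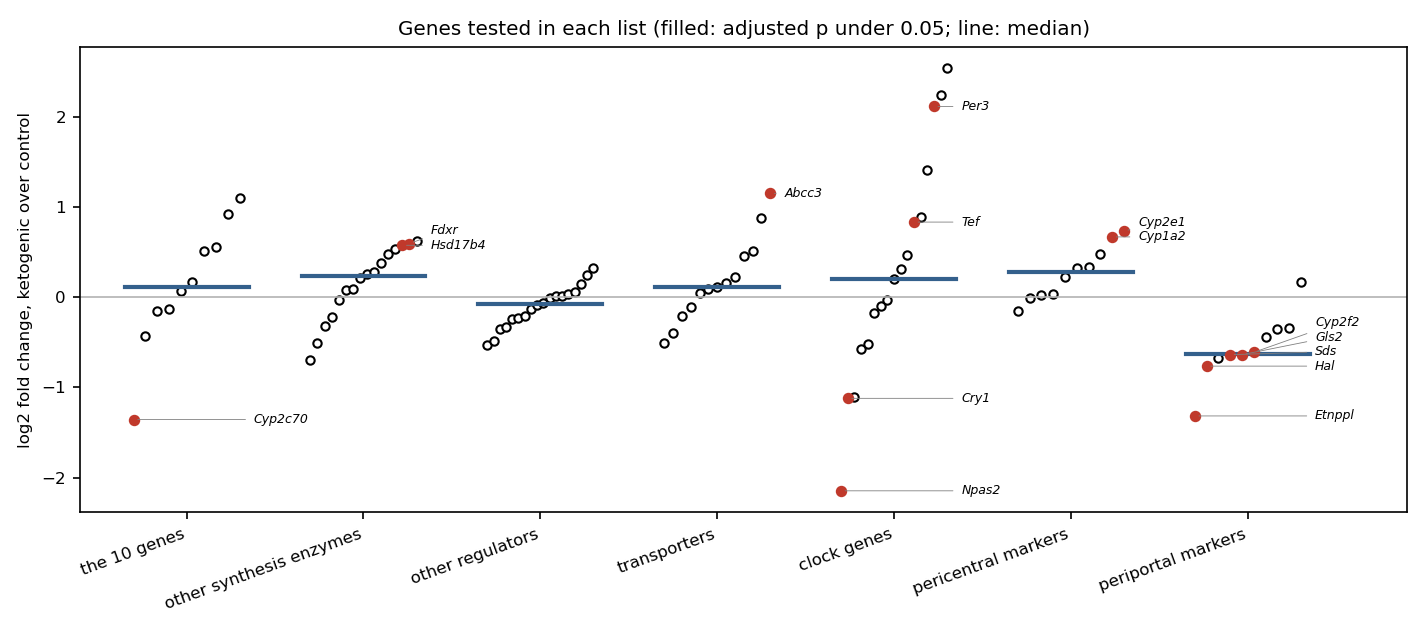
Log2 fold change, ketogenic over control, of every tested gene of the 10 genes and of 6 further lists, sorted within each list, filled and named where the adjusted p was under 0.05, with a line at each list's median. Abcc3 at 1.16 and Cyp2c70 at -1.36 are the called points farthest from 0 among the bile acid lists, and the periportal markers lie low with a median of -0.62.

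Lists that can move with these genes were counted beside them, and their part in the results was not tested. Synthesis of bile acids follows the time of day, and the sources used here do not state when livers were taken. Of 17 clock genes 2 rose, Per3 (log2 fold change 2.12, adjusted p = 0.0365, edgeR) and Tef (0.84, adjusted p = 0.0478), and 2 fell, Npas2 (-2.15, adjusted p = 0.0364) and Cry1 (-1.12, adjusted p = 0.0186), with a median of 0.20. Cry1 stayed called in all 12 leave-one-out fits, Per3 in 5, Npas2 in 3 and Tef in 1, and without ketogenic 4 the called ones were Per3 and Cry1. DESeq2 called 8 clock genes, 5 higher (Per3, Tef, Dbp, Bhlhe41 and Ciart) and 3 lower (Npas2, Cry1 and Arntl). Dbp, a clock-controlled factor known in rat as an activator of Cyp7a1, had 40.6 ± 27.1 CPM in ketogenic livers and 8.58 ± 7.55 CPM in control livers (2.24, adjusted p = 0.106, edgeR), and the r of Cyp7a1 with Dbp over the 12 libraries was -0.094 (permutation p = 0.830, adjusted p = 0.867), with rho = -0.301 (permutation p = 0.387, adjusted p = 0.738) and r = -0.645 without ketogenic 6 and control 5.

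Some markers of liver zones were called too. Of 10 pericentral markers, 2 rose and 0 fell, Cyp2e1 (log2 fold change 0.74, adjusted p = 0.0232, edgeR) and Cyp1a2 (0.67, adjusted p = 0.0262), and the median was 0.28. Their summed level was 10920 to 14100 CPM in ketogenic livers and 6261 to 9758 CPM in control livers. Most of that sum was Cyp2e1 alone, at 8527 ± 770 CPM in ketogenic livers and 5115 ± 1331 CPM in control livers (SD). Of the 10 pericentral markers 8 had a log2 fold change above 0, beside 49.9% of all genes tested, and Rgn (-0.01) and Tbx3 (-0.15) did not. The 8 include Axin2 (0.02) and Lect2 (0.04), which hardly differed between diets. Of 10 periportal markers, 5 fell and 0 rose, with a median of -0.62: Etnppl (-1.32, adjusted p = 0.00304, edgeR), Hal (-0.76, adjusted p = 0.0182), Cyp2f2 (-0.61, adjusted p = 0.0194), Gls2 (-0.64, adjusted p = 0.0337) and Sds (-0.64, adjusted p = 0.0444). Their summed level was 3912 to 5280 CPM in ketogenic livers and 5109 to 6144 CPM in control livers, and 6 were called lower without ketogenic 4. With 1 library left out, 0 to 2 pericentral markers were called higher and 1 to 6 periportal markers lower, the fewest of the periportal ones without control 3. With library size as the only scaling, 2 pericentral markers were called higher and 3 periportal markers lower.

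Among markers of other cells, 0 were called in either direction by edgeR or DESeq2 for 7 tested markers each of cholangiocytes, stellate cells, endothelial cells, Kupffer cells, and lymphocytes with neutrophils. In that order, the median log2 fold changes were 0.11, 0.06, 0.19, 0.03 and 0.39. Above 0 lay 5, 4, 7, 5 and 6 of the 7 markers, beside 49.9% of all genes tested. At an unadjusted p under 0.05 in edgeR, 1 cholangiocyte marker was lower, 1 endothelial marker was higher and 2 of the last list were higher. Their summed levels ran from 42.3 to 158 CPM in ketogenic livers and 41.5 to 90.5 CPM in control livers for cholangiocytes, and from 462 to 757 CPM in ketogenic livers and 381 to 666 CPM in control livers for Kupffer cells. Stellate markers summed to 301 to 635 CPM in ketogenic livers and 281 to 765 CPM in control livers, and endothelial markers to 443 to 627 CPM in ketogenic livers and 414 to 568 CPM in control livers. Those of lymphocytes with neutrophils summed to 5.84 to 18.0 CPM in ketogenic livers and 4.49 to 7.09 CPM in control livers. Of the hepatocyte markers 9 were tested and 1 fell, Fgb (log2 fold change -0.91, adjusted p = 0.0273, edgeR), a call kept in 6 of 12 leave-one-out fits. The median of the 9 was -0.26, and 2 of them lay above 0.

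Genes that differ between the sexes in mouse liver were listed because Cyp7b1 is among the male-biased genes of that organ. Of 10 male-biased genes, 1 rose, Cyp4a12a (log2 fold change 0.91, adjusted p = 0.0247, edgeR), and 1 fell, Cyp2u1 (-0.69, adjusted p = 0.0381). Of 10 female-biased genes, 3 were tested and 1 rose, Cyp2b9 (6.44, adjusted p = 0.0262, edgeR), at 0.538 to 110.6 CPM in ketogenic livers and 0 to 1.34 CPM in control livers. Xist, on the same list and named after its values were seen, was near 0 in every library. It had 0 to 0.0838 CPM in ketogenic livers and 0 to 0.154 CPM in control livers, too low to be tested. With 1 library left out, Cyp4a12a stayed called in 7 of 12 fits, Cyp2u1 in 4 and Cyp2b9 in 8. Without ketogenic 4 the male-biased genes called were Cyp4a12a, higher, and Mup20, lower, a urinary protein gene with 788.6 to 7025 CPM in ketogenic livers and 2411 to 5845 CPM in control livers. Limma-voom did not call Cyp2b9. Cyp2b9 and Mup20 have close copies in the genome that may share their reads, so both values are uncertain. Cyp4a12a may likewise share reads with Cyp4a12b, on the same list and not called (log2 fold change 0.29, adjusted p = 0.647, edgeR).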

How the data were processed

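RNA of 12 mouse livers (6 per diet) was sequenced, and the authors deposited raw counts per gene in 1 table, with no scaling. The submitters' processing notes name, without roles, the programs HISAT2 (2.1.0), fastp (0.19.3), Cufflinks and StringTie (1.3.4d), and libraries came from a NEBNext Ultra kit per the labels' protocols. No source used here names the counting program, strand setting or build, so chromosomes are printed as deposited and promoters, from RefSeq on GRCm38.p6, are not set against them. Overlapping, antisense and near-identical genes can share reads.

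The test was edgeR 4.0.16 under R 4.3.3 (filterByExpr, TMM factors, robust quasi-likelihood fit, diet as the only term, Benjamini-Hochberg adjustment over 13995 genes, call under 0.05). SEs were taken as the estimate over the square root of F. CPM uses TMM-scaled library sizes, and log2 CPM no pseudocount. Exon lengths came from GENCODE M21 by gene ID. Totals of 30.2 to 33.5 M counts hold amplification copies. In no pair from the same diet did 2 libraries agree within sampling noise (lowest chi-square per degree of freedom 33.3). Pairs across diets were not compared in this way. Nothing in the labels says that replicates were separate animals beyond the series' words, so p-values measure the spread between these libraries. Correlations used 100000 permutations within diet, two-sided, adjusted over 12 pairs.

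Members and gene lists were chosen with earlier results of these data known. The rule for named genes took all members, the called and the 2 most abundant genes of each list, and the 2 genes most like each member, of which 1 is not reported here; the most abundant genes are printed for the bile acid lists alone, and genes named by their pairing or after their values were seen fall outside it. On simulated counts for 13860 genes, the test called 65 of the 100 with a log2 change of 1, and 95 of the 100 with one of 2; 8 of its 168 calls had no change. Alternatives were DESeq2 1.42.0, limma-voom (limma 3.58.1), RLE factors, library size only, no filter, at least 1 CPM in 6 libraries, a replicate block, offsets for transcript length (spline with 4 degrees of freedom), 1 surrogate variable (sva 3.50.0), a count of 1 added to ratios, and each library left out. Leaving out control 5 and ketogenic 4 together was chosen after seeing the data.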

Additional observations from a re-analysis of the deposited data

Results flagged for a closer look

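In each diet, the gap of the highest or the lowest library to its nearest neighbour was set against the range of the 6 libraries, for the 10 genes and the 4 ratios. Of 28 groups of 6 libraries, 4 exceeded the critical value of Dixon's test at 95%. Chance gives about 1 in 20 only for independent groups with a normal spread. Levels were taken as CPM on a linear scale, where high values stretch the range, and were not tested on the log2 scale. The level of Cyp7a1 and its ratio in control 5 are not independent, so the 4 are not read as an excess. Cyp7a1 stood high in control 5 at 157.2 CPM, with a gap of 0.788 of the range. The log2 ratio of Cyp7a1 over Cyp7b1 stood high in the same library at 0.346, with a gap of 0.764. Cyp2c70 stood high in control 2 at 752.5 CPM, with a gap of 0.637. Hsd3b7 stood high in ketogenic 3 at 0.765 CPM, with a gap of 0.740, on very few counts.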

How the results depend on the processing

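Over all genes, 529 were called (328 higher, 201 lower). DESeq2 called 1028, the fit with 1 surrogate variable 1318 and the fit with the replicate block 268 (175 higher, 93 lower), and leaving out 1 library gave 319 to 761. Library size as the only scaling moved the split to 448 higher and 127 lower, with a shift of 0.07 in the median log2 fold change. Of the 10 genes, 1 was called, against 2 with DESeq2, library size only or 1 surrogate variable, 0 with no filter on low counts, and 0 to 2 with 1 library left out. Cyp2c70 stayed called with the replicate block (adjusted p = 0.0487), but same-numbered libraries did not deviate together (correlations -0.315 to 0.391, best with their own number in 2 of 6). No member but Hsd3b7 changed sign in these fits. Hsd3b7 gave -0.0442 without control 4, -0.0575 without control 6 and -0.1001 without ketogenic 3, in a range up to 0.3432. Some correlations changed sign: Cyp27a1 with Cyp7b1 (-0.192 with library size only, -0.089 to 0.314 with 1 library left out), Cyp7a1 with Dbp (-0.307 to 0.072), Cyp7b1 with Nr0b2 (-0.056 to 0.273), Cyp7a1 with Hmgcs1 (-0.162 to 0.292) and Cyp8b1 with Cyp2c70 (-0.289 with all libraries, 0.011 without ketogenic 6, in a range down to -0.488). The causes of these changes were not tested. With 6 libraries per diet, the interval of Cyp7a1 spans a decrease and a large increase, and Hsd3b7 rests on 7 to 27 counts a library.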
